A study of Mus musculus with 6 samples.

Results

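The 10 genes described here are the tumour suppressor p53, its inhibitors and a set of its stress targets: Trp53, Mdm2, Mdm4, Cdkn1a, Sesn2, Trp53inp1, Ccng1, Btg2, Ddit4 and Bbc3. They were picked by name out of 23259 gene names in the table, and all 10 were found. Newly made RNA in mouse embryos was marked with 4-thiouridine (S4U), a uridine analogue that is built into RNA during transcription and that reads as a T-to-C mismatch after alkylation. Reads with such a mismatch are called T-to-C reads. No unlabelled control was analysed here, so mismatches from sequencing error or polymorphism were not subtracted. The groups were zygotes with the WT genotype, zygotes with the genotype Pabpn1l-null and 2-cell embryos with the WT genotype, with 2 samples per group. Per the labels, a sample held 50 embryos kept for 2 h in medium with 200 μM S4U, starting 26 h after the hormone that triggers ovulation. That protocol speaks of zygotes for every sample. The sources used here do not say when 2-cell embryos were collected, what kind of null allele was used or which parent carried it. PABPN1L binds poly(A) tails in oocytes and early embryos and takes part in the clearance of maternal mRNA.

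p53 is a transcription factor that is kept scarce by MDM2, a ubiquitin ligase that sends it to the proteasome, and held inactive by MDM4, which covers its activation domain. DNA damage and other stresses release it, and it then switches on genes that halt the cell cycle (Cdkn1a, Ccng1, Btg2), that adjust metabolism (Sesn2, Ddit4) or that favour cell death and autophagy (Bbc3, Trp53inp1). Several of these genes, Sesn2 and Ddit4 above all, also answer to stress factors other than p53, and p53 itself is governed mostly at the protein level, which RNA reads do not show.

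Each group has 1 column of total reads and 1 of T-to-C reads in the table. There is therefore no replicate check, and every test below compares libraries, not conditions. Named genes held 3001472 reads in the WT zygote column, 1270347 in the null column and 4020444 in the 2-cell column, of which 3.03%, 3.86% and 4.54% were T-to-C reads. Genes with exactly 1 read numbered 977, 184 and 545 in the same order and genes with 7 reads 326, 281 and 308, so the null column was short of genes with the lowest counts. The WT columns showed no such shortage. Tests and intervals take 7 reads as 1 molecule in every column, a choice that the low counts of the WT columns do not call for. Under it, a column without a read of a gene may hold up to 3 molecules of it, or 21 reads (the floor). Intervals and this floor cover counting error only. Pabpn1l itself had 47, 4 and 14 reads, a null-to-WT ratio of 0.192 (95% interval 3.87e-04 to 2.24). With 7 reads taken as 1 molecule this does not exceed counting error, so it neither bears out nor contradicts the genotype label. The 10 oocyte and zygote markers summed to 42813, 23332 and 16409 reads. The 9 early 2-cell markers in the table summed to 205, 21 and 11846 (Tcstv1 and Tcstv3 at 0, the 2-cell column included). Marker sums of other cells were 177, 42 and 139 reads for 10 genes of cumulus and granulosa cells (Inha, Ptx3 and Tnfaip6 at 0), 11, 5 and 4 for 8 sperm genes (Prm1, Tnp2 and Smcp at 0), and 43, 1 and 42 for 5 blood genes (Ptprc at 0). Their part in the results was not tested. Levels are given in reads per 1000000 reads (RPM) after scaling by the trimmed mean of M values (TMM). They are not divided by transcript length, and they are compared within a gene only. Since columns are scaled to each other, a change in RNA per embryo cannot be told apart from none.

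The promoters of Cdkn1a, Ccng1, Sesn2 and Btg2 are shown because these genes were called higher at the 2-cell stage, and that of Mdm2 because it holds the same p53 motif without such a call. Each runs 5′ to 3′ over the 250 bases before an annotated start, from RefSeq on GRCm38.p6. Capitals mark the p53 decamer, the 10-letter unit that p53 response elements carry as a pair.
Cdkn1a, chr17:29090729-29090978, plus strand: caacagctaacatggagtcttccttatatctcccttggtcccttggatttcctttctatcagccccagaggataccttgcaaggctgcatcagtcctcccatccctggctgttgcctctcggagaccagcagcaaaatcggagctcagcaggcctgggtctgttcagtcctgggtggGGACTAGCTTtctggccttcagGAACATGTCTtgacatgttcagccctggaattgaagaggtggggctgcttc
Ccng1, chr11:40755287-40755536, minus strand: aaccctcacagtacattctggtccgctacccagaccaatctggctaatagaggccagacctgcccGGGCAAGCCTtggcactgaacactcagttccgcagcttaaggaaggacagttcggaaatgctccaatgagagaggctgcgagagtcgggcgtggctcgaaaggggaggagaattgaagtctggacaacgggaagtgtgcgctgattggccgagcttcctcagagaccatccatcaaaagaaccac
Sesn2, chr4:132510457-132510706, minus strand: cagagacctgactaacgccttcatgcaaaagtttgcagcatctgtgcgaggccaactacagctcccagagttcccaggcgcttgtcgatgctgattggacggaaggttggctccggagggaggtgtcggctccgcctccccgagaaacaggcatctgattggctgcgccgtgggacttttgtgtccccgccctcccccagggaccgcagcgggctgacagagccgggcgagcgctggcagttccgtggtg
Btg2, chr1:134079156-134079405, minus strand: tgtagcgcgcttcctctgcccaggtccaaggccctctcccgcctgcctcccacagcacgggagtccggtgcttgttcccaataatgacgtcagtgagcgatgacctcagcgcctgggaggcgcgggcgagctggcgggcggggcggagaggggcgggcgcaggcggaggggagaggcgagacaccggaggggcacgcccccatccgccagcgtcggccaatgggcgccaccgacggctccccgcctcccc
Mdm2, chr10:117710759-117711008, minus strand: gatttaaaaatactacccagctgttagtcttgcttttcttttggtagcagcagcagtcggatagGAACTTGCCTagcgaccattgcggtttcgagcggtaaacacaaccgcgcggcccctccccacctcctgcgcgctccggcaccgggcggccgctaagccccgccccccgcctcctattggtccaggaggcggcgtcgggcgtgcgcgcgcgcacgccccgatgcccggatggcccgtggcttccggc

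The p53 decamer reads the same on both strands and was found in 7.13% of 32851 such windows. The genes described here had 13 windows, of which 4 held a match. These belong to 4 of the 9 genes with a window: Cdkn1a, Ccng1, Mdm2 and Trp53. Cdkn1a has 2 decamers, GGACTAGCTT at 73 bases before the upstream of 2 annotated starts and GAACATGTCT at 51. The latter is followed directly by tgacatgttc, which meets 9 of the 10 letters. In Ccng1 the decamer GGGCAAGCCT begins 185 bases before the start, and the 10 bases before it, agacctgccc, also meet 9 of 10. In Mdm2 (GAACTTGCCT, 186 bases before the start) and Trp53 (GGACTTGCCC, 75 bases before) the neighbouring bases met at most 5 and 7 letters. No match was found in the windows of Sesn2, Btg2, Ddit4, Bbc3 and Mdm4, and Trp53inp1 had no window. Cdkn1a has a second annotated start 2790 bases downstream, whose window holds no decamer, and the table counts the gene as a whole. Among motifs sought on both strands, CCAAT was found in 7 of the 13 windows (33.8% of all windows) and GGGCGG in 8 (32.7%), where matches in Btg2 and Bbc3 partly overlap each other, as do 2 of the 3 windows of Bbc3. CATG, which lies inside the decamer GAACATGTCT of Cdkn1a, was found in 2 windows (53.9% of all), TATAAA in 1 (12.4%) and TGATGNAA, a core of ATF4 sites, in none (3.45%). These matches describe letters, not binding.

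Between WT zygotes and 2-cell embryos, total reads of 4 of the 10 genes were higher and 0 lower: Sesn2, Cdkn1a, Ccng1 and Btg2. Of these 4 genes 2, Sesn2 and Ccng1, were under the floor in WT zygotes. Of all 11262 genes tested 16.4% were called higher and 15.9% lower in the exact conditional binomial test, where a call needs an adjusted p (Benjamini-Hochberg) under 0.05 and a 2-fold difference. The median log2 ratio was 1.26 over the 10 genes, of which Bbc3 reached the minimum of 20 reads only through the 2-cell column, and 0.04 over all genes. In null against WT zygotes 1 of the 10, Trp53inp1, was lower and 0 were higher, where 0.675% and 0.684% of 11262 genes were called. The median log2 ratio there was -0.14, beside -0.16 over all genes. Both comparisons share the WT zygote column.

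**Figure D1:**
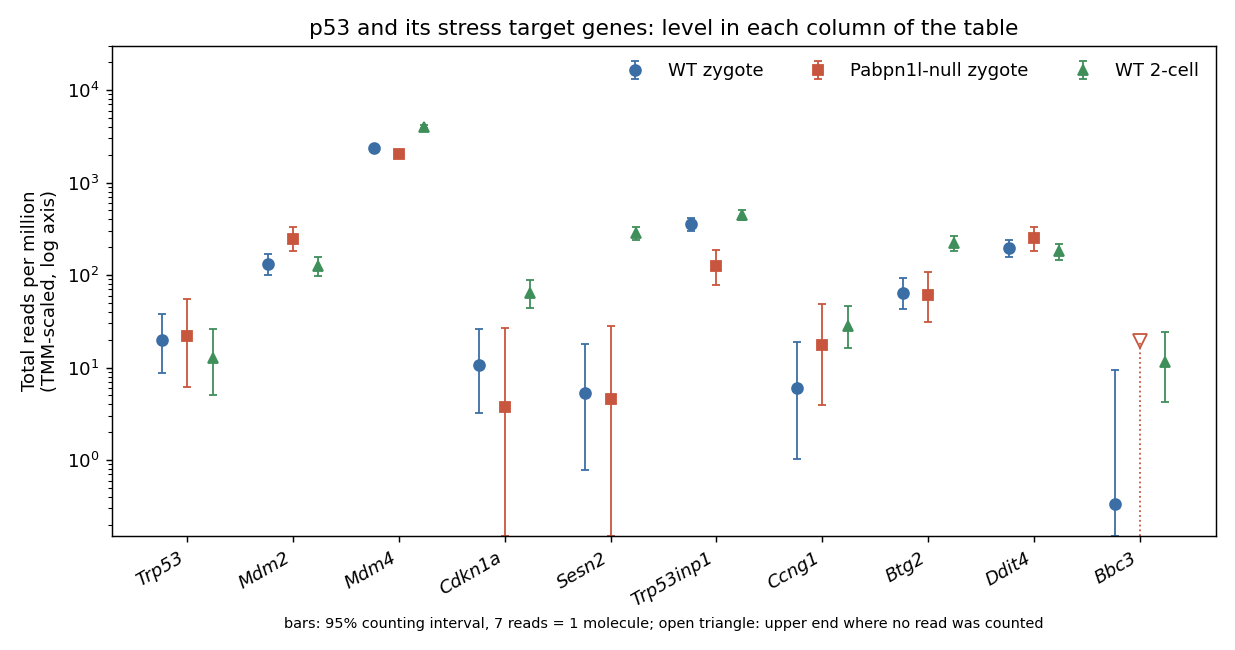
Total reads in RPM (TMM-scaled, log axis) of the 10 genes in the 3 columns, with 95% counting intervals at 7 reads per molecule. Sesn2 and Cdkn1a stand apart in the 2-cell column (283 and 63.3 RPM against 5.35 and 10.7 in WT zygotes), Trp53inp1 is low in the null column alone (124 against 358 and 444), and Bbc3 had no read in the null column.

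Trp53, the gene of p53 on chromosome 11 at 69580348 to 69591873 of GRCm38, was thinly covered. Its reads numbered 59 in the WT zygote, 29 in the null and 49 in the 2-cell column, or 19.7, 21.9 and 12.7 RPM. These levels overlap within their intervals, and the ratios were 1.11 (0.254 to 4.02) in null and 0.641 (0.200 to 1.98) in 2-cell embryos against WT zygotes. T-to-C reads numbered 14, 3 and 0, so the share was 23.7% (Clopper-Pearson 95% interval 3.02 to 62.8%), 10.3% (0.00311 to 68.8%) and 0% (up to 41.0%). With 7 reads per molecule the difference between WT zygotes and 2-cell embryos was not detectable at this depth in T-to-C reads or share. With every read counted as 1 molecule both passed (exact tests, adjusted p = 8.03e-05 and 0.00116). So did T-to-C reads in the exact test of edgeR, where a variation of 0.4 between replicates was assumed (adjusted p = 0.0220). The edgeR test also took every read as 1 molecule, here and below, so it is not separate support on that point. The table has 2 distinct rows named Trp53, which differ in the WT zygote column alone: the other row has 55 reads, 10 of them T-to-C reads. A pseudogene, Trp53-ps on chromosome 17 at 54419597 to 54421236, may share reads with Trp53.

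Mdm2 (chromosome 10, 117688875 to 117710758), the ligase that degrades p53 and at the same time its target, had 392 reads in the WT zygote column, 327 in the null column and 485 in the 2-cell column. Scaled levels were 131, 247 and 125 RPM, so the null column is the high one. The null-to-WT ratio of 1.88 (1.25 to 2.83) had an exact p of 0.00227 and an adjusted p of 0.0732. It lies under the 2-fold demand, which also barred the call in the settings where the adjusted p of the exact test fell under 0.05, namely column totals (0.0417), a minimum of 50 reads in 2 columns (0.0352), 7 reads per molecule in the null column alone (0.00697) and every read as 1 molecule (3.85e-15). At the 2-cell stage the ratio was 0.955 (0.662 to 1.38), and its log2 value of -0.07 became 0.20 with relative log expression (RLE) factors, which move the median of all genes from 0.04 to 0.28. Its T-to-C reads were few, 13, 5 and 11, with shares of 3.32%, 1.53% and 2.27%.

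Mdm4 (chromosome 1, 132986105 to 133030587), which masks the activation domain of p53, held most reads of the set. The WT zygote column holds 7076 of them, the null column 2717 and the 2-cell column 15570, between 73.8% and 74.9% of the reads of the 10 genes in each column. The 2-cell column is the high one, at 4020 RPM against 2366 in WT and 2053 in null zygotes. The ratio of total reads in 2-cell embryos was 1.70 (1.58 to 1.83, exact test, adjusted p = 7.29e-45), below the 2-fold demand. With RLE factors the log2 ratio went from 0.76 to 1.03 and the gene was called. With edgeR's exact test at an assumed variation of 0.4 the difference did not pass (adjusted p = 0.545). In null zygotes the ratio was 0.867 (0.770 to 0.976, exact test, adjusted p = 0.293).

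Of the 10 genes Mdm4 was the one whose T-to-C reads were called higher at the 2-cell stage. T-to-C reads numbered 135, 62 and 1107, and those of 2-cell embryos exceeded those of WT zygotes by a ratio of 6.33 (3.93 to 10.8, exact test, adjusted p = 9.53e-19). The T-to-C share was 1.91% (1.16 to 2.95%) in WT zygotes, 2.28% (1.04 to 4.31%) in null zygotes and 7.11% (6.08 to 8.26%) in 2-cell embryos, and the zygote intervals do not reach that of the 2-cell column. Fisher's exact test called the share higher in 2-cell embryos (adjusted p = 1.30e-08). Of the 8 genes of the set tested in T-to-C reads 1 was higher and 0 lower, where 4.18% and 1.55% of 4376 genes were called, and of 7 tested in share 1 was higher and 0 lower, where 1.85% and 0.0579% of 6909 were. In null against WT zygotes 0 of 8 passed in T-to-C reads in either direction, where 0.0457% of 4376 genes were called higher and 0% lower, and 0 of 6 passed in share, where 0% of 5999 were called higher and 0.0167% lower. No gene of the set tested had an unadjusted p under 0.05 in T-to-C reads or share of null zygotes (0 of 8 and 0 of 6). Bbc3 and Ccng1 had too few T-to-C reads to test, and the share needed 20 reads in both columns, which left out Bbc3, Sesn2 and Ccng1, and in null zygotes Cdkn1a also. The T-to-C reads of Mdm4 gave a null-to-WT ratio of 1.04 (0.411 to 2.41), with a log2 value of 0.05 that became -0.22 with T-to-C column totals in place of the scaling of total reads. Without Mdm4 the other genes of the set had 2365, 965 and 5304 reads, of which 94, 47 and 184 were T-to-C reads, or 3.97%, 4.87% and 3.47%, so the pooled share was then lowest in 2-cell embryos. With Mdm4 it was 2.43%, 2.96% and 6.18%. RefSeq places the pseudogene Gm29257 and the long non-coding RNA Gm41953 over parts of Mdm4, and their reads may be counted in it.

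**Figure D2:**
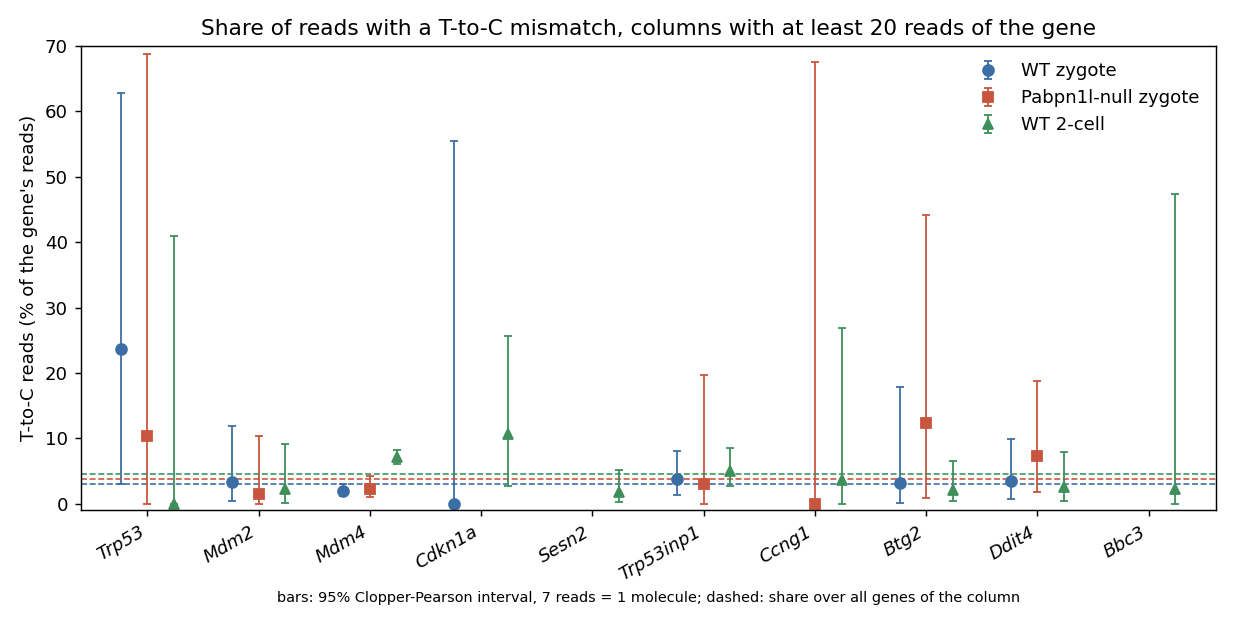
Percentage of each gene's reads that carry a T-to-C mismatch, in columns with at least 20 reads of the gene, with 95% Clopper-Pearson intervals at 7 reads per molecule; dashed lines are the shares of whole columns (3.03%, 3.86% and 4.54%). The 2-cell share of Mdm4 (7.11%) lies above both zygote shares with short intervals, while the WT zygote share of Trp53 (23.7%) has an interval from 3.02 to 62.8%.

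Cdkn1a (chromosome 17, 29090979 to 29100722) encodes p21, the inhibitor of cyclin-dependent kinases through which p53 halts the cell cycle. WT zygotes had 32 reads of it, null zygotes 5 and 2-cell embryos 245, or 10.7, 3.78 and 63.3 RPM. The 2-cell column is the high one, and its interval (44.1 to 88.0) lies above those of both zygote columns (3.25 to 25.9 and 0.0266 to 26.8). The ratio against WT zygotes was 5.91 (2.23 to 20.6, exact test, adjusted p = 1.48e-04). All 26 of its T-to-C reads were in 2-cell embryos, 10.6% of its reads there (2.78 to 25.7%). That difference in T-to-C reads did not pass with 7 reads per molecule. It passed with every read as 1 molecule (exact test, adjusted p = 4.12e-06) and, also on single reads, with edgeR's exact test (0.00818). In null zygotes the ratio was 0.353 (0.00209 to 4.12), too imprecise at 5 reads to show a difference.

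Ccng1 (chromosome 11, 40748552 to 40755309), the gene of cyclin G1, a p53 target that recruits a phosphatase to MDM2, had 18 reads in the WT zygote column, 23 in the null column and 110 in the 2-cell column. Levels were 6.02, 17.4 and 28.4 RPM, with the null interval (3.94 to 48.6) spanning the value of the 2-cell column. The rise at the 2-cell stage, 4.72 (1.25 to 30.1, exact test, adjusted p = 0.0428), was lost with column totals in place of TMM (0.0503), without a filter on low counts (0.0617) and with edgeR's exact test (0.0660). In null zygotes the ratio was 2.89 (0.396 to 24.5), which passed only when every read counted as 1 molecule (exact test, adjusted p = 0.00445). Its 4 T-to-C reads were all in 2-cell embryos.

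Btg2 (chromosome 1, 134074865 to 134079155), an antiproliferative gene of the BTG/TOB family whose proteins bind the CCR4-NOT deadenylase, had 193 WT zygote reads, 81 null reads and 856 reads at the 2-cell stage. The zygote columns lay together at 64.5 and 61.2 RPM, and the 2-cell column was higher at 221. The ratio was 3.42 (2.25 to 5.38, exact test, adjusted p = 1.28e-09) at the 2-cell stage, a call lost with edgeR's exact test (0.117), and 0.948 (0.433 to 1.95) in null zygotes. T-to-C reads were 6, 10 and 18, or 3.11%, 12.3% and 2.10%, and the share in null zygotes (0.812 to 44.2%) overlaps that in WT zygotes (0.0462 to 17.8%).

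Sesn2 (chromosome 4, 132492804 to 132510456) encodes sestrin 2, a leucine-binding inhibitor of the growth kinase complex mTORC1, and had the highest called ratio of the set. Reads numbered 16 in WT and 6 in null zygotes and 1096 at the 2-cell stage, or 5.35, 4.53 and 283 RPM. Both zygote counts are under the floor of 21 reads, and the 2-cell column lies far above it. The ratio was 52.9 (15.5 to 362, exact test, adjusted p = 6.88e-34), and 1.30% of all genes tested had a higher log2 ratio. T-to-C reads numbered 1, 0 and 19, and the 2-cell share of 1.73% (0.320 to 5.23%) has an interval that holds the 4.54% of the whole column. The T-to-C ratio of 14.7 (lower end 0.241) did not pass with 7 reads per molecule. It passed with every read as 1 molecule (exact test, adjusted p = 0.00116) and, also on single reads, with edgeR's exact test (0.0482). Shares of different genes also depend on how many uridines a transcript holds, so they are not ranked here.

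Ddit4 (chromosome 10, 59949675 to 59951770), the gene of REDD1, another inhibitor of mTORC1 that responds to low oxygen and to nutrient stress, passed in neither comparison. Reads numbered 584 in WT and 330 in null zygotes and 698 at the 2-cell stage, or 195, 249 and 180 RPM, with overlapping intervals. The ratio was 0.923 (0.683 to 1.25) at the 2-cell stage, so a 2-fold change in either direction lies outside the interval. Its log2 value of -0.12 became 0.15 with RLE factors. In null zygotes the ratio of total reads was 1.28 (0.874 to 1.85). T-to-C reads were 20, 24 and 18, and WT zygotes had a share of 3.42%, null zygotes 7.27% and 2-cell embryos 2.58%, with overlapping intervals. The T-to-C ratio of 2.71 (0.401 to 20.3) in null zygotes passed only with every read as 1 molecule (exact test, adjusted p = 0.0132).

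**Figure D3:**
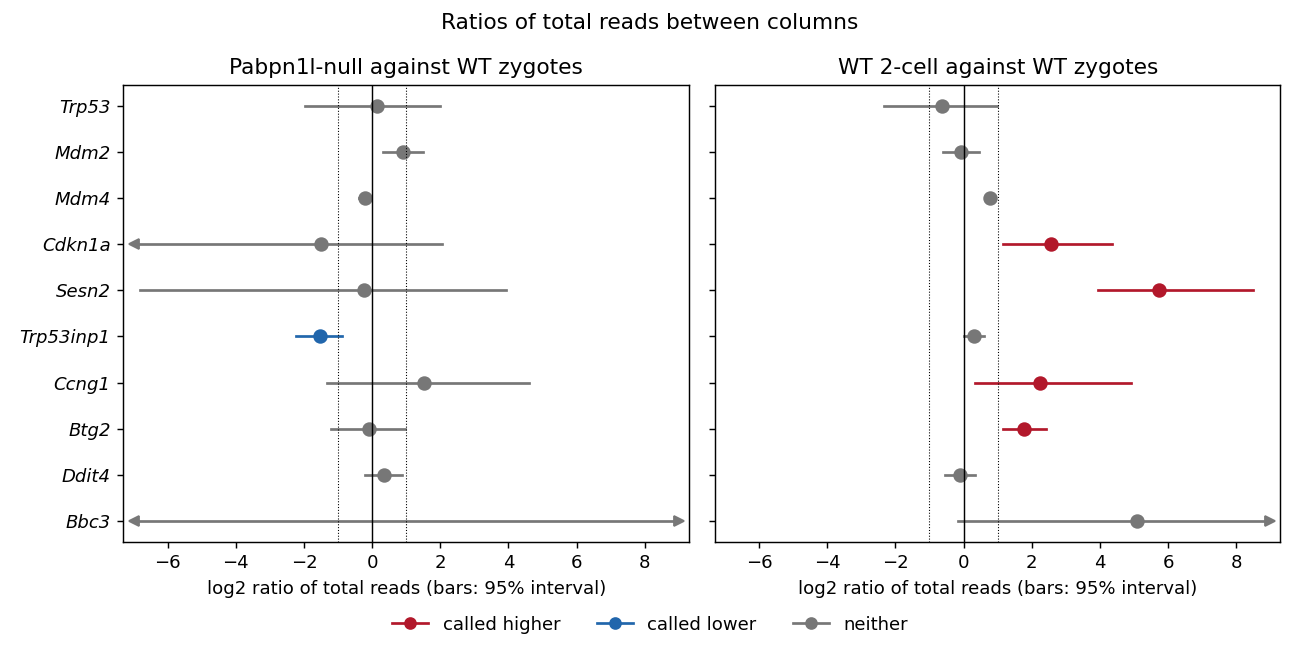
Log2 ratios of total reads with 95% exact intervals for null against WT zygotes (left) and 2-cell against WT zygotes (right); dotted lines mark a 2-fold difference, and arrows mark intervals that run beyond the axis. Trp53inp1 alone is called on the left (ratio 0.346), and Sesn2, Cdkn1a, Ccng1 and Btg2 on the right (ratios 52.9 to 3.42).

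Trp53inp1 (chromosome 4, 11156441 to 11174379), a nuclear stress protein that aids p53-driven death and autophagy, was the gene of the set that fell in null zygotes. WT zygotes had 1070 reads of it, null zygotes 164 and 2-cell embryos 1721, or 358, 124 and 444 RPM, and the null interval (78.9 to 185) lies below those of both WT columns. The null-to-WT ratio was 0.346 (0.214 to 0.537, exact test, adjusted p = 1.65e-05), a call lost with edgeR's exact test (0.471). T-to-C reads numbered 40 and 5, a ratio of 0.282 (0.00173 to 2.97) that did not pass with 7 reads per molecule and passed with every read as 1 molecule (exact test, adjusted p = 0.0255). The share was 3.74% (1.34 to 8.10%) in WT and 3.05% (0.0214 to 19.7%) in null zygotes, with overlapping intervals. At the 2-cell stage the ratio was 1.24 (1.01 to 1.53, exact test, adjusted p = 0.0935), and 87 T-to-C reads gave a share of 5.06% (2.67 to 8.59%). The null column has the fewest reads of the 3, and its part in this difference was not tested.

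Bbc3 (chromosome 7, 16308398 to 16318334) encodes PUMA, a protein that starts apoptosis by blocking the survival members of the Bcl-2 family. WT zygotes had 1 read of it, null zygotes 0 and 2-cell embryos 44. The zygote counts are under the floor, so no fold is given between them, and the 2-cell level was 11.4 RPM (4.29 to 24.3). The 2-cell ratio of 34.0 (lower end 0.885) did not pass (exact test, adjusted p = 0.153). It passed with every read as 1 molecule (1.14e-09) and, also on single reads, with edgeR's exact test (0.00257). Only 1 of its reads carried a T-to-C mismatch.

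In the authors' deposited table each gene is also called Positive or Negative per group, by a rule that the sources used here do not state. Mdm4 was Positive in all 3 columns, Trp53inp1 in both WT columns, Ddit4 in null zygotes alone and Trp53 in WT zygotes alone, where its other row is Negative. The remaining 6 genes were Negative throughout, Cdkn1a with its 26 T-to-C reads in 2-cell embryos included. In that table the highest T-to-C count of a Negative row was 30 in WT zygotes, 15 in null zygotes and 30 at the 2-cell stage, and the lowest of a Positive row 5, 3 and 5.

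**Figure D4:**
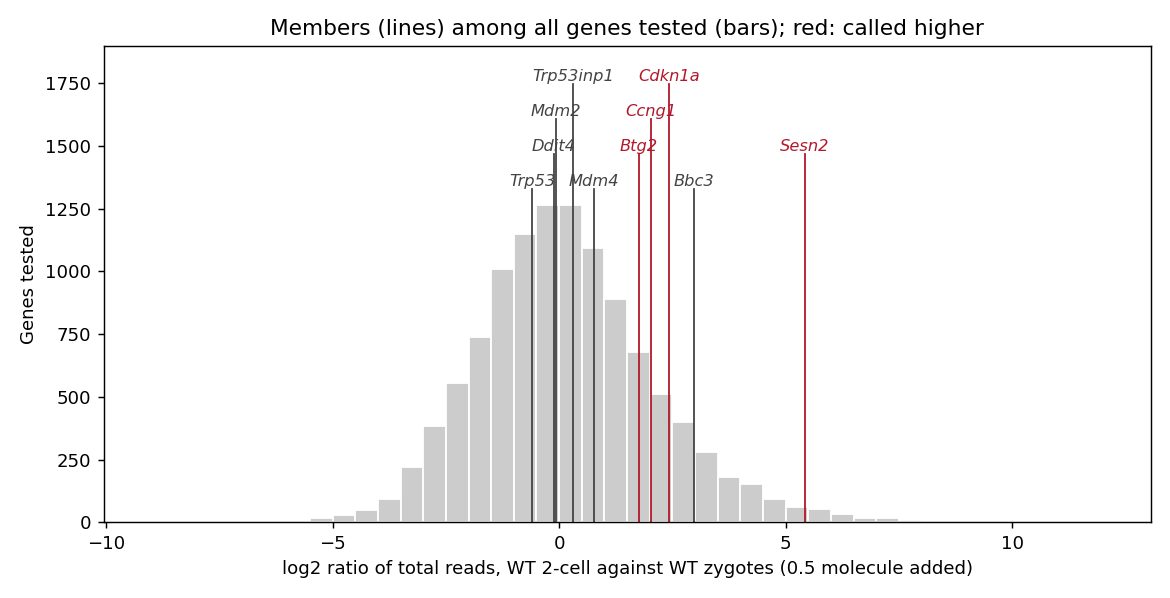
Log2 ratio of total reads, 2-cell against WT zygotes, for all 11262 genes tested (grey bars, genes per bin of 0.5) and the 10 genes (lines; red where called higher). The called genes lie between log2 ratios of 1.76 (Btg2) and 5.42 (Sesn2), Bbc3 at 2.97 is not called, and the other genes lie between -0.59 (Trp53) and 0.76 (Mdm4).

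The rest of the pathway was described with 5 lists of other p53 genes, 113 names of which 108 were in the table. At the 2-cell stage 27 of 81 tested (33.3%) were higher and 8 (9.88%) lower in total reads, beside 16.4% and 15.9% of all genes, with a median log2 ratio of 0.95 against 0.04. These counts and medians lean to the 2-cell stage by construction: 21 of the 81 genes (25.9%) and 2490 of all genes (22.1%) reached 20 reads only through the 2-cell column, as did 12 of the 27 called higher, and 15 of the 27 were at or under the floor in WT zygotes. In null against WT zygotes 0 of 81 passed in either direction, beside 0.684% of all genes higher and 0.675% lower. With so few calls over all genes, this count does not set the lists apart from the background. The median was 0.00 against -0.16. In T-to-C reads 3 of 36 were higher and 0 lower at the 2-cell stage, beside 4.18% and 1.55% of all genes, and the 3 went to 0 with T-to-C column totals as the scale. In share 1 of 52 was higher and 0 lower, beside 1.85% and 0.0579% of all genes, so both counts are close to the background. In null zygotes 0 of 36 passed in T-to-C reads, beside 0.0457% of all genes higher and 0% lower. In share 0 of 49 passed there, beside 0% and 0.0167%.

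Among targets that arrest growth 8 of 16 were higher and 0 lower at the 2-cell stage (median 2.59), beside 16.4% and 15.9% of all genes. Of these 16 genes 8 were tested only because of their 2-cell reads, 6 of them among the 8 higher, so neither the count nor the median supports a direction of the list. Dusp5, a phosphatase of the ERK kinases, had 0 reads in the WT zygote and 216 in the 2-cell column, at least 7.94-fold higher against the floor of 21 reads, with an exact lower end of 6.08. E2f7, a repressor of cell cycle genes, had 1 and 208 reads (ratio 161, lower end 5.40). Btg1, a relative of Btg2, had 36 and 898 (19.3, 8.13 to 59.1), and the polo-like kinase gene Plk3 had 1 and 72 (55.6, lower end 1.65). The remaining higher genes, named after their values were seen, were Gadd45a, Gadd45b, Plk2 and Sfn, with ratios of 5.03 (Sfn) to 15.0 (Plk2). Of these genes Btg1 and Sfn alone had more than 21 reads in WT zygotes.

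Among apoptosis and survival targets 3 of 12 were higher and 0 lower (median 1.41), beside 16.4% and 15.9% of all genes. Of these 12 genes 5 were tested only because of their 2-cell reads, 2 of them among the 3 higher. Pmaip1, the gene of the death-inducing protein NOXA, had 1 and 133 reads (103, lower end 3.32), Bid, which carries death signals to mitochondria, had 12 and 207 (13.3, 3.10 to 149), and Ei24 had 217 and 1004 (3.57, 2.41 to 5.45). In T-to-C reads 1 of 4 tested was higher, beside 4.18% of all genes. It was Trp53inp2, a relative of Trp53inp1 that acts in autophagy, with 27 and 201 (5.75, 1.99 to 23.2). That call was lost with T-to-C column totals as the scale.

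DNA repair targets went both ways, with 3 of 10 higher, 3 lower and a median of -0.71, beside 16.4% and 15.9% of all genes. Of these 10 genes 1, Sertad1, was tested only because of its 2-cell reads, and it is among the 3 higher. All 3 higher genes were under the floor in WT zygotes. Polh, a polymerase that copies past ultraviolet lesions, had 13 and 242 reads (14.4, 3.54 to 139), and the excision repair nuclease gene Ercc5 had 15 and 141 (7.26, 1.83 to 57.8). Sertad1, which had 5 and 1287 reads (199, 27.7 to 28322), is a transcriptional co-regulator and not a repair enzyme. Fancc, of the Fanconi anaemia pathway, was lower with 320 and 57 (0.138, 0.0565 to 0.293). The other lower genes, named after their values were seen, were the damage sensor gene Ddb2 with 131 and 37 reads (0.218, 0.0659 to 0.594) and the recombination gene Rad51c with 146 and 37 (0.196, 0.0598 to 0.523).

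Metabolism, redox and autophagy targets had 5 of 16 higher and 1 lower (median 1.26), beside 16.4% and 15.9% of all genes. Of these 16 genes 4 were tested only because of their 2-cell reads, among them 2 of the 5 higher, Ndrg1 and Tsc2. Ndrg1, a stress-response gene, had 0 and 441 reads, at least 16.2-fold higher against the floor, with an exact lower end of 12.8. Tsc2, an upstream brake on mTORC1, had 10 and 105 (8.11, 1.56 to 135), and Sco2, an assembly factor of cytochrome c oxidase, had 35 and 150 (3.31, 1.22 to 11.2). Slc7a11, the cystine transporter gene, was lower in total reads with 1002 and 639 (0.492, 0.374 to 0.645). That ratio is just inside the 2-fold demand, and with RLE factors 7 of the other p53 genes were lower in place of 8. T-to-C reads of Slc7a11 were higher with 29 and 180 (4.79, 1.68 to 18.4). Its share rose from 2.89% to 28.2% (Fisher's exact test, adjusted p = 1.92e-06). The T-to-C reads of 9630033F20Rik were higher as well, 33 and 207 (4.84, 1.82 to 16.7). These were 2 of 8 tested in T-to-C reads, beside 4.18% of all genes. Both calls in T-to-C reads were lost with T-to-C column totals as the scale.

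Regulators and partners of p53 had 8 of 27 higher and 4 lower (median 0.50), beside 16.4% and 15.9% of all genes. Of these 27 genes 3 were tested only because of their 2-cell reads, 1 of them among the 8 higher. The arginine methyltransferase gene Prmt5 had 14 and 120 reads (6.62, 1.57 to 59.0), the ubiquitin ligase gene Huwe1 had 52 and 328 (4.87, 2.23 to 12.4) and the deacetylase gene Sirt1 had 145 and 778 (4.14, 2.58 to 6.98). Chek1, the replication checkpoint kinase gene, was lower with 2049 and 827 reads (0.312, 0.249 to 0.387) and was named after its value was seen, as were Usp10, Rffl and Trp73, the other lower genes (ratios of 0.356, 0.363 and 0.237). In total reads of null zygotes 0 of the 27 were called, where 0.684% of all genes were higher and 0.675% lower.

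**Figure D5:**
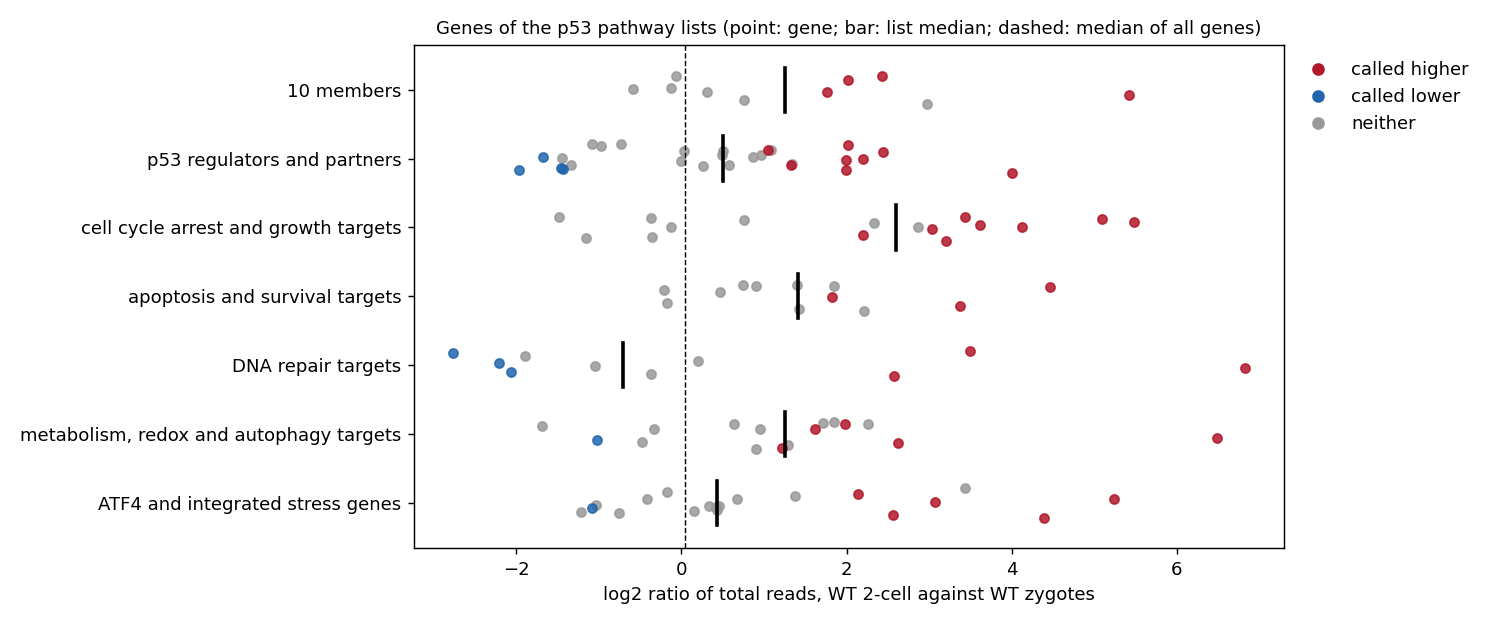
Log2 ratio of total reads, 2-cell against WT zygotes, for each tested gene of the lists (points; red higher, blue lower, grey neither), with list medians as black bars and the median of all genes (0.04) as a dashed line. Growth arrest targets have the rightmost median (2.59), where 8 of 16 genes were tested only because of their 2-cell reads, and DNA repair targets the leftmost (-0.71).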

How the data were processed

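The submitters' processing notes name the mouse genome build mm10 (GRCm38), with no role given. The sources used here name no aligner, counter or annotation and do not say how duplicates were treated. The authors deposited whole-number counts per row, with 1 column of total reads and 1 of T-to-C reads for each group, and do not say whether these merge the 2 samples. Of 30493 rows 47 show a date in place of a name and were left out, and the row with the most summed reads was kept per name. The 10 genes, the lists, the tests and the choice of 7 reads per molecule were made with earlier results of these data known.

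Library sizes were multiplied by TMM factors (WT zygotes 0.996, null zygotes 1.04, 2-cell embryos 0.963; edgeR 4.0.16 in R 4.3.3, otherwise Python 3.11.15 and scipy 1.17.1). A gene needed 20 reads summed over the 3 columns to be tested in total reads, 10 in T-to-C reads, and for the share 20 reads in each column compared. The exact conditional binomial test (two-sided, tails extended to fractional molecules) was used for reads and Fisher's exact test on rounded molecules for shares, with Benjamini-Hochberg adjustment over all genes tested. Log2 ratios have 0.5 molecule added. Ratios and their 95% intervals have none. The exact test of edgeR was run on single reads, not on molecules. The tests were also run on simulated data. The settings and outcome of that run are not reported here, so it is not counted as support for the tests. All 10 genes are named, and from each list at most 4 called genes per comparison by the size of the log2 ratio. Genes named beyond this rule are marked as named after their values were seen. Some genes that this rule would name are not reported here. Coordinates and promoters come from RefSeq on GRCm38.p6, where all 10 genes matched.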

Additional observations from a re-analysis of the deposited data

How the results depend on the processing

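No paired analysis was possible because the table has 1 column pair per group, and single samples could not be left out for the same reason. In total reads, null against WT zygotes, counting every read as 1 molecule gave 1 of the 10 genes higher in place of 0 and 6 higher and 2 lower among the other p53 genes in place of 0 and 0 (1127 and 1559 of all 11262 genes were then called), and edgeR's exact test at an assumed variation of 0.4 gave 0 lower in place of 1. In T-to-C reads of this comparison every read as 1 molecule gave 1 of the 10 higher and 1 lower, and 5 higher and 2 lower among the others (13.5% and 4.43% of all genes), and in share 6 and 2 of the others (661 and 136 of 5999 genes), each in place of 0. In total reads, 2-cell against WT zygotes, at least 50 reads in at least 2 columns left 1 of the 10 genes higher in place of 4 and 9 of the others in place of 27, since genes above 50 reads only at the 2-cell stage are then not tested. The others lower were 16 in place of 8 with every read as 1 molecule (28.4% of all genes) or 7 reads per molecule in the null column alone, and 2 with edgeR's exact test. In T-to-C reads these same 3 settings each gave 3 of the 10 higher in place of 1 and 1 lower in place of 0, and of the others 17, 17 and 8 higher in place of 3 and 2 lower in place of 0, where every read as 1 molecule called 30.4% and 19.0% of all genes. With T-to-C reads scaled by their own column total 0 of the others were higher. In share, both ways of counting reads gave 1 of the 10 lower in place of 0 and, of the others, 7 higher in place of 1 and 4 lower in place of 0 (11.2% and 4.44% of all genes with every read as 1 molecule). Log2 ratios of Mdm2 and Ddit4 in total reads at the 2-cell stage turned to 0.20 and 0.15 with RLE factors, and that of Mdm4 in T-to-C reads of null zygotes to -0.22 with T-to-C totals. Factors and filter from both WT columns alone, chosen after seeing the data, gave the same counts for the 10 genes in total and T-to-C reads of 2-cell against WT zygotes, where alone this was run. Over all genes, calls at the 2-cell stage ranged from 775 to 3462 higher and 1230 to 3200 lower in total reads over these settings, and in null zygotes from 25 to 1127 higher and 61 to 1559 lower. Apart from changed scaling, filter or molecule size, the cause of these differences was not tested.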

Other observations

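Genes of the integrated stress response, which ATF4 drives when translation initiation is slowed and which also governs Sesn2 and Ddit4, differed for a minority at the 2-cell stage. Of 19 tested 5 were higher and 1 lower in total reads against WT zygotes (26.3% and 5.26%, beside 16.4% and 15.9% of all genes), with a median log2 ratio of 0.43 beside 0.04, and 5 of the 19, among them 3 of the 5 higher, were tested only because of their 2-cell reads. Psat1, an enzyme of serine synthesis, had 7 WT zygote reads and 524 at the 2-cell stage, a ratio of 57.8 (10.1 to 2313). Trib3, a pseudokinase that ATF4 induces, had 18 and 588 (25.2, 7.73 to 149), the kinase gene Eif2ak3, which senses misfolded protein in the endoplasmic reticulum, 4 and 80 (15.4, 1.52 to 7343), and Ppp1r15a, which restores translation, 45 and 369 (6.33, 2.79 to 17.3). Eif2ak1, the haem-sensing kinase gene, was the lower one, with a ratio of 0.464 (0.257 to 0.819), a call lost with edgeR's exact test or RLE scaling. It was named after its value was seen. In T-to-C reads 1 of 7 was higher (4.18% of all genes), the amino acid transporter gene Slc7a5 with 3 and 146 (37.6, lower end 3.21). In null against WT zygotes 1 of 19 was higher in total reads (0.684% of all genes) and 0 were lower (0.675%). The higher one was the transcription factor gene Cebpb with 139 and 193 (3.14, 1.70 to 5.89), a call lost with edgeR's exact test. In T-to-C reads 0 of 7 passed, beside 0.0457% of all genes higher and 0% lower.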
